A study of Mus musculus with 50 samples.

Results

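The genes described are those of the cytosolic ribosomal proteins of the mouse, the protein parts of the ribosomes that translate nuclear mRNA. Membership was set by symbol alone, although earlier results of these data were known when the set was chosen. A member is a gene whose symbol starts with Rpl (large subunit) or Rps (small subunit) followed by a digit, together with Rplp0, Rplp1, Rplp2 and Rpsa. Symbols with "-ps", which mark pseudogenes, the Rps6k kinases and Rps19bp1 were left out. This gave 93 of the 53700 genes in the count tables, 55 of the large and 38 of the small subunit, and 322 symbols with "-ps" were dropped. Of the 93 members, 86 had at least 1 CPM (a count scaled to the size of its library) in 3 or more mice and were tested, 51 of the large and 35 of the small subunit.

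The study measured what early-life stress (ELS) leaves behind in microglia, the resident macrophages of the brain. Poly-A RNA of CD45int CD11b+ cells sorted from the hippocampi of 50 male C57BL/6J mice was sequenced, 1 library for each mouse.  ELS was limited bedding and nesting material from P2 to P9, and CTR mice were left undisturbed in these days. P9-CTR (n = 12) and P9-ELS (n = 13) mice were 9 days old and untreated. P200-CTR-PBS (n = 7) and P200-ELS-PBS (n = 6) mice were 200 days old and had received phosphate-buffered saline (PBS), while P200-CTR-LPS (n = 7) and P200-ELS-LPS (n = 5) mice had received 1 mg/kg lipopolysaccharide (LPS), a bacterial cell wall component, 3 hours before they were killed. Myelin was removed by Percoll from the adult brains only, and the P9 and P200 mice were separate cohorts, so that age cannot be told apart from cohort and isolation.

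Each ribosome holds, in principle, a single copy of most ribosomal proteins, and cells keep the production of these proteins coordinated. In vertebrates much of that control is on translation. The mRNAs start with a C and a tract of pyrimidines, the 5′ terminal oligopyrimidine (TOP) motif, through which mTOR signalling and the protein LARP1 set how many of them are translated. An mRNA level therefore says nothing direct about the rate of protein synthesis. Several members also act outside the ribosome, such as Rpl5 and Rpl11, which restrain Mdm2 when ribosome assembly is disturbed.

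Total counts per mouse ranged from 5152838 to 42231258. Microglial markers were high in every group (summed CPM of 8 genes from 32058 to 77118). The markers of blood monocytes and neutrophils were low, with a summed CPM of 6 genes from 0.712 to 11.0, and Ly6g was at 0 in all groups. In all, 3 libraries had few detected genes. They were P200-CTR-PBS mouse 1.1 with 12854 genes (17424 to 19727 in the other mice of its group) and a pair of P9-ELS mice of nest 19 with 12482 and 15731 genes. In mouse 1.1, 77 of the 86 tested members were at their highest among the 7 CTR-PBS mice, which was the case for 26.1% of all genes tested. Values without this mouse are given beside the results that it moved most. Mice are named here by the number in their title, whose first part was read as a nest and whose second as the mouse, although the labels do not define either.

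How the reads were counted may limit the levels of these genes. Only uniquely mapped reads were counted, and ribosomal protein genes have many processed copies in the genome. In 29 of the 93 members, every 50-base stretch of the coding sequence had an exact copy elsewhere in GRCm39, and the median member had such copies for 86.5% of its stretches. Rps3 and Rpl8 had 8.09% and 8.86%. The length of 50 bases was a setting of this search. Reads on exons that a second gene model shares on the same strand may also be lost as ambiguous. This holds for Rpl24 (shared with Gm28037), Rps10 (with Gm49804) and Rpl36al (with Gm49383), whose means over all mice were 0.386, 0.844 and 2.64 CPM. Well counted members share exons too, such as Rpl19 (with Gm11629 and Gm54878, 239 CPM) and Rpl41 (with Gm9176, 163 CPM). Whether copies or sharing lowered any of these levels was not tested. Levels are therefore compared mainly within a gene between groups. The library kit does not mark the strand, so that reads of overlapping antisense genes cannot be separated.

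Pyrimidine tracts were found near the annotated starts of many members. The 50 bases on either side of the start of the canonical transcript were searched on the sense strand for a C followed by only C and T, at least 8 bases in all. Such a run was in the window of 44 of the 84 tested members with a coding transcript start (52.4%), and of 29.1% of all 13085 tested coding genes. The starts are those of the GENCODE annotation of GRCm39 and need not be the start used in microglia. The windows below are 30 bases of the sense strand, 5′ to 3′, with the longest run in capitals. The first 3 are of members that fell most with age in CTR mice. Rps16, Rpl39 and Rps27a are among those the study names, and Rpl7l1 is the member that rose with age.
Rpsa: cggaagttCTCCCTTTTTgcttagcctgct
Rps2: ccgcggcgCCTCCCTCTTCTTCTTCTTCgg
Rpl29: ggctctaaCCCCTCCCCTTTCTaggcttca
Rps16: cagctccgCCCCTTCCCCTCCgacaccgcc
Rpl39: gatgtaggCCTTTTCCCgccctcctcagag
Rps27a: gctcggatCTTCCTTTCCgatccgccatcg
Rpl7l1: gaggcgggCCTCTCTaccccgcccggtgag
These lie in GRCm39 at chr9:119956771-119956800 (Rpsa, plus strand), chr17:24939069-24939098 (Rps2, plus), chr9:106306592-106306621 (Rpl29, plus), chr7:28049997-28050026 (Rps16, plus), chrX:36349129-36349158 (Rpl39, minus), chr11:29497844-29497873 (Rps27a, minus) and chr17:47093593-47093622 (Rpl7l1, minus). The run of Rps2 had 20 bases and that of Rpl7l1 had 7, below the length counted. Counted from the annotated start (negative before it), the runs began at 24 (Rpsa), -5 (Rps2), 14 (Rpl29) and 23 (Rps16). Those of Rpl39, Rps27a and Rpl7l1 began at -20, -1 and -8. The runs of Rpl39 and Rpl7l1 end before the annotated start. A run in the window need not be a TOP motif. In the 250 bases before to 50 bases after the start, CCGGAA, read on both strands, was present in 39 of the 84 members (46.4%) and in 24.1% of all coding genes tested. The palindrome CACGTG was in 11 members (13.1%) and in 9.94% of coding genes. These matches are letters in a window and not binding sites.

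Per kilobase of coding sequence, the tested members spanned a wide range of levels. The mean over all 50 mice was highest for Rpl32 (1410 CPM per kb) and Rps27 (1209), both structural proteins of the ribosome. It was lowest for Rps3a2, a retrocopy of Rps3a1 (0.712, per kb of its transcript), Rpl24 (0.819) and Rps10 (1.71). The quartiles of the 86 members were 217 and 492 CPM per kb with a median of 327. Rplp0, the base of the acidic stalk that recruits elongation factors, took the largest share of the members' CPM (4.80%), followed by Rpl4 (4.37%) and Rpl13 (3.51%). The balance of the subunits differed little between groups. The summed CPM of the large subunit genes was 1.49 ± 0.06 times that of the small subunit genes in P9-CTR mice (SD, n = 12). Among adults it was 1.52 ± 0.04 in ELS-PBS (n = 6) and 1.47 ± 0.05 in CTR-PBS (n = 7).

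The 7 members that were not tested were paralogs or retrocopies. Rpl10l, the testis form of Rpl10, had 0 counts in all 50 mice. Rpl3l, the striated muscle form of Rpl3, had 32 counts in all, spread over 5 mice. Rpl32l and Rpl6l reached 1.79 and 1.43 CPM in their highest mouse, and Rps3a3, Rps23rg1 and Rps12l1 did not exceed 0.544 CPM in any mouse.

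The first question was how these genes change from pup to adult in CTR and in ELS mice. The ribosomal protein genes were lower in adult than in P9 microglia in both conditions, and nearly all of them moved together. Their share of all counts was between 1.74% and 3.04% (median 2.24%, mean 2.34 ± 0.37, SD, n = 12) in P9-CTR and between 2.00% and 3.66% (median 2.57%, mean 2.62 ± 0.48, n = 13) in P9-ELS. In CTR-PBS it was between 0.987% and 1.94% (median 1.101%, mean 1.22 ± 0.33, n = 7), and in ELS-PBS between 0.900% and 1.21% (median 0.981%, mean 1.01 ± 0.11, n = 6). Every P9 mouse was above every P200 mouse except mouse 1.1, whose 1.94% reached into the range of the pups. Fewer cells of a kind with many ribosomes and less ribosomal protein mRNA per cell cannot be told apart in such bulk samples.

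**Figure D1:**
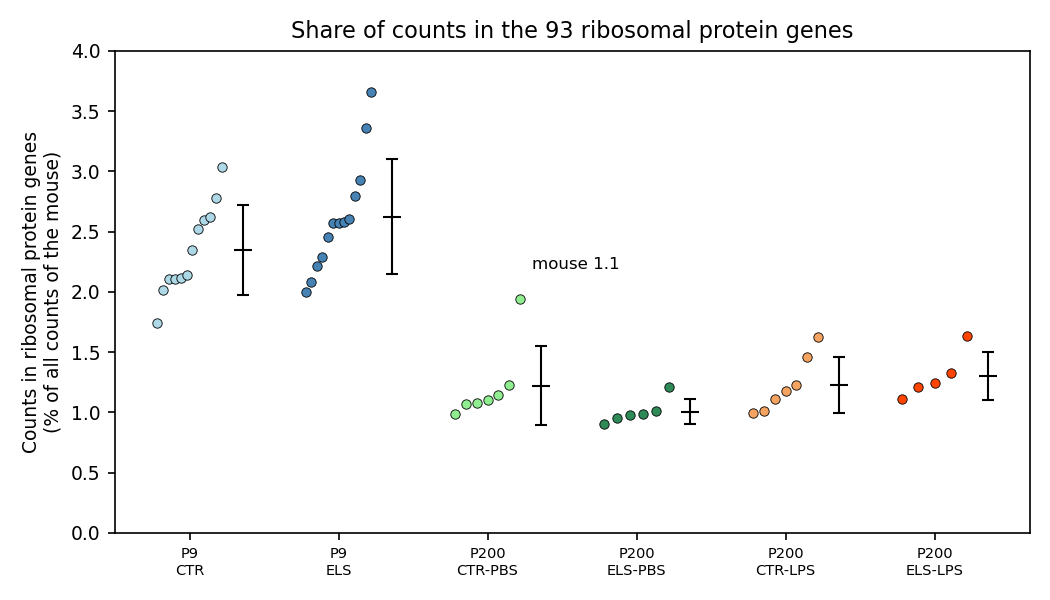
Percent of all counts of a mouse that fell on the 93 ribosomal protein genes (vertical axis) in the 6 groups, with a point for each mouse and the mean with SD beside the points. All P9 mice lie at 1.74% or above and all P200 mice but mouse 1.1 (1.94%) at 1.63% or below.

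In CTR mice, 74 of the 86 tested members fell with age and 1 rose (edgeR's quasi-likelihood test, adjusted p under 0.05). Of all 16696 genes tested, 26.6% were lower and 17.4% higher in this comparison. The median log2 fold change of the members was -0.84, and that of all genes -0.09. In ELS mice 80 members fell and 0 rose (0 higher also at an unadjusted p under 0.05 and with DESeq2), against 25% lower of all genes and 2863 genes higher, with a median of -1.38 for the members and -0.01 for all genes. The 74 members that fell in CTR were all among the 80 that fell in ELS. With the further demand of a log2 fold change under -1, 22 members remained in CTR (18.5% of all genes) and 76 in ELS (17.5%). For 77 members every P9-ELS mouse was above every ELS-PBS mouse, which held for 7.03% of all genes. For 13 members every P9-CTR mouse was above every CTR-PBS mouse (10.5% of all genes). Without mouse 1.1, 55 members were in that position (12.4% of all genes).

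**Figure D2:**
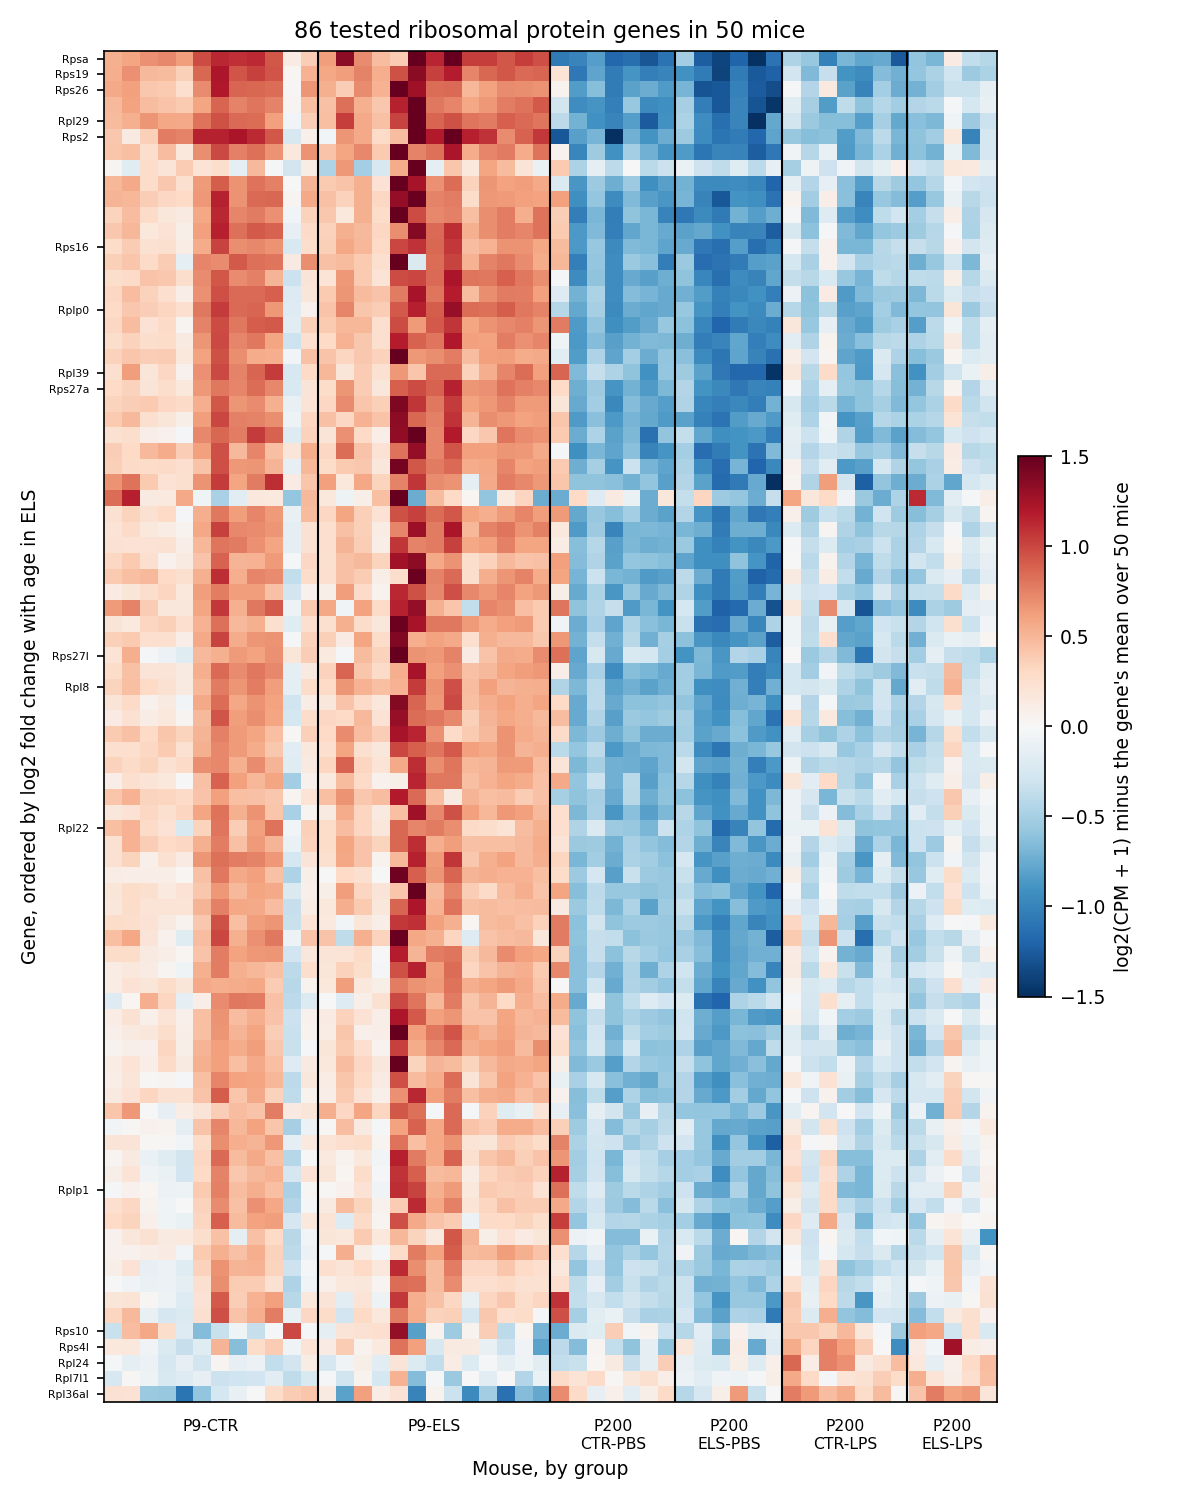
Level of each tested member (rows, ordered by its change with age in ELS) in each of the 50 mice (columns, by group and by nest within it), as log2(CPM + 1) minus the mean of the gene over all mice, with names beside some of the rows. Most rows are red at P9 and blue at P200, mouse 1.1 is the pale to red first column of P200-CTR-PBS, and the bottom rows (Rps4l, Rpl24, Rpl7l1, Rpl36al) do not share the pattern.

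Among small subunit members, Rpsa changed most. Rpsa forms part of the head of the small subunit and is also known as the laminin receptor. It was between 135 and 274 CPM (median 204) in P9-CTR and between 50.4 and 69.8 CPM (median 57.4) in CTR-PBS, groups that did not overlap. The log2 fold change was -1.87 (SE 0.17, adjusted p = 3.4e-13, edgeR's quasi-likelihood test). In P9-ELS it was between 162 and 423 CPM (median 256) and in ELS-PBS between 43.9 and 86.6 CPM (median 52.9), again without overlap (log2 fold change -2.20, SE 0.18, adjusted p = 2.05e-14). Mouse 1.1 was not high for this gene.

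Rps2, which lies at the mRNA entry of the small subunit, had a log2 fold change of -1.68 (SE 0.20, adjusted p = 1.58e-09) in CTR mice, with at least 205 CPM in every P9-CTR mouse (median 411) and 73.2 to 149 CPM (median 138) in CTR-PBS. In ELS mice its log2 fold change was -1.87 (SE 0.22). Rps19, needed to mature the 18S rRNA and mutated in Diamond-Blackfan anemia, was between 594 and 1035 CPM (median 736) in P9-ELS and between 154 and 216 CPM (median 185) in ELS-PBS. All pups were above all adults, with a log2 fold change of -2.02 (SE 0.16, adjusted p = 8.5e-15). In CTR mice its groups overlapped through mouse 1.1 alone, which had 468 CPM against 192 to 234 CPM in the other 6 CTR-PBS mice, and the log2 fold change was -1.44 with that mouse and -1.68 without it. Rps26, which contacts the mRNA beside the exit site, fell by 1.31 in CTR and by 1.92 in ELS on the log2 scale. Rps6, the substrate of the S6 kinases, fell by 0.90 and 1.49.

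The members with few copies in the genome also moved. Of the 5 tested with under 20% of stretches copied, 3 fell in each condition, with medians of -0.92 and -1.42. Rpl8 fell by 1.09 and 1.42 on the log2 scale, and Rps3, which also acts in DNA repair, by 0.52 and 0.99. Of the 28 tested members with all stretches copied, 26 fell in CTR (median -0.86) and 27 in ELS (median -1.33).

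In the large subunit, Rpl29, a surface protein of the subunit, was between 80.8 and 162 CPM (median 127) in P9-CTR and between 34.4 and 63.0 CPM (median 43.9) in CTR-PBS. The groups did not overlap, and the log2 fold change was -1.48 (SE 0.15, adjusted p = 2.98e-11) in CTR and -1.88 (SE 0.17) in ELS. Rpl5 and Rpl11, which form with 5S rRNA the particle that binds Mdm2, fell by 0.78 each in CTR and by 1.2 and 1.29 in ELS on the log2 scale. Rpl13a, which represses translation of inflammatory mRNAs when released from the ribosome, fell by 0.70 and 1.16. It was counted at only 5.52 to 16.1 CPM in the CTR mice of both ages. All 10 members listed for a role outside the ribosome fell in ELS, and 9 of them fell in CTR, where Rplp1 did not pass.

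The acidic stalk had 3 members. Rplp0 was between 678 and 1606 CPM (median 1011) in P9-CTR and between 398 and 576 CPM (median 457) in CTR-PBS, without overlap (log2 fold change -1.22, SE 0.14, adjusted p = 2.64e-10). In ELS its log2 fold change was -1.66 (SE 0.15). Rplp2 fell by 0.56 in CTR and by 1.04 in ELS. Rplp1 was between 144 and 343 CPM in P9-CTR and between 139 and 358 CPM in CTR-PBS, with mouse 1.1 the highest of both groups. Its log2 fold change in CTR was -0.37 (SE 0.17, adjusted p = 0.0793), and without mouse 1.1 it was -0.63 with an adjusted p of 0.00146. In ELS Rplp1 fell by 1.04 (adjusted p = 1.01e-05).

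In its comparison of the ages in ELS mice the study names 8 members, namely Rps16, Rps15a, Rpl39, Rps27a, Rps12, Rpl17, Rps24 and Rpl9. It gives them as examples of genes higher at P9 in ELS mice alone, and not called in CTR mice. Its figure legend states a log2 fold change beyond 1 and a false discovery rate under 0.05. A list chosen on these mice is no independent evidence of its direction. All 8 fell with age in ELS, with log2 fold changes between -1.68 and -1.51, and all 8 also fell in CTR, between -0.99 and -0.82. None of the 8 passed a log2 fold change of -1 in CTR, and all did in ELS. Without mouse 1.1 all 8 passed it in CTR as well, with log2 fold changes between -1.29 (Rps15a) and -1.06 (Rpl9). Rps16 was between 135 and 321 CPM (median 200) in P9-CTR and between 81.3 and 221 CPM (median 98.1) in CTR-PBS, where the highest value was that of mouse 1.1 and the other 6 mice did not exceed 107 CPM. Rpl39, which lines the exit tunnel, was between 36.7 and 91.3 CPM (median 61.4) in P9-CTR. In CTR-PBS it was between 22.9 and 34.3 CPM in 6 mice and 80.6 CPM in mouse 1.1. Rps27a, which is made as a fusion with ubiquitin, had log2 fold changes of -0.98 (SE 0.15) in CTR and -1.61 (SE 0.16) in ELS.

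**Figure D3:**
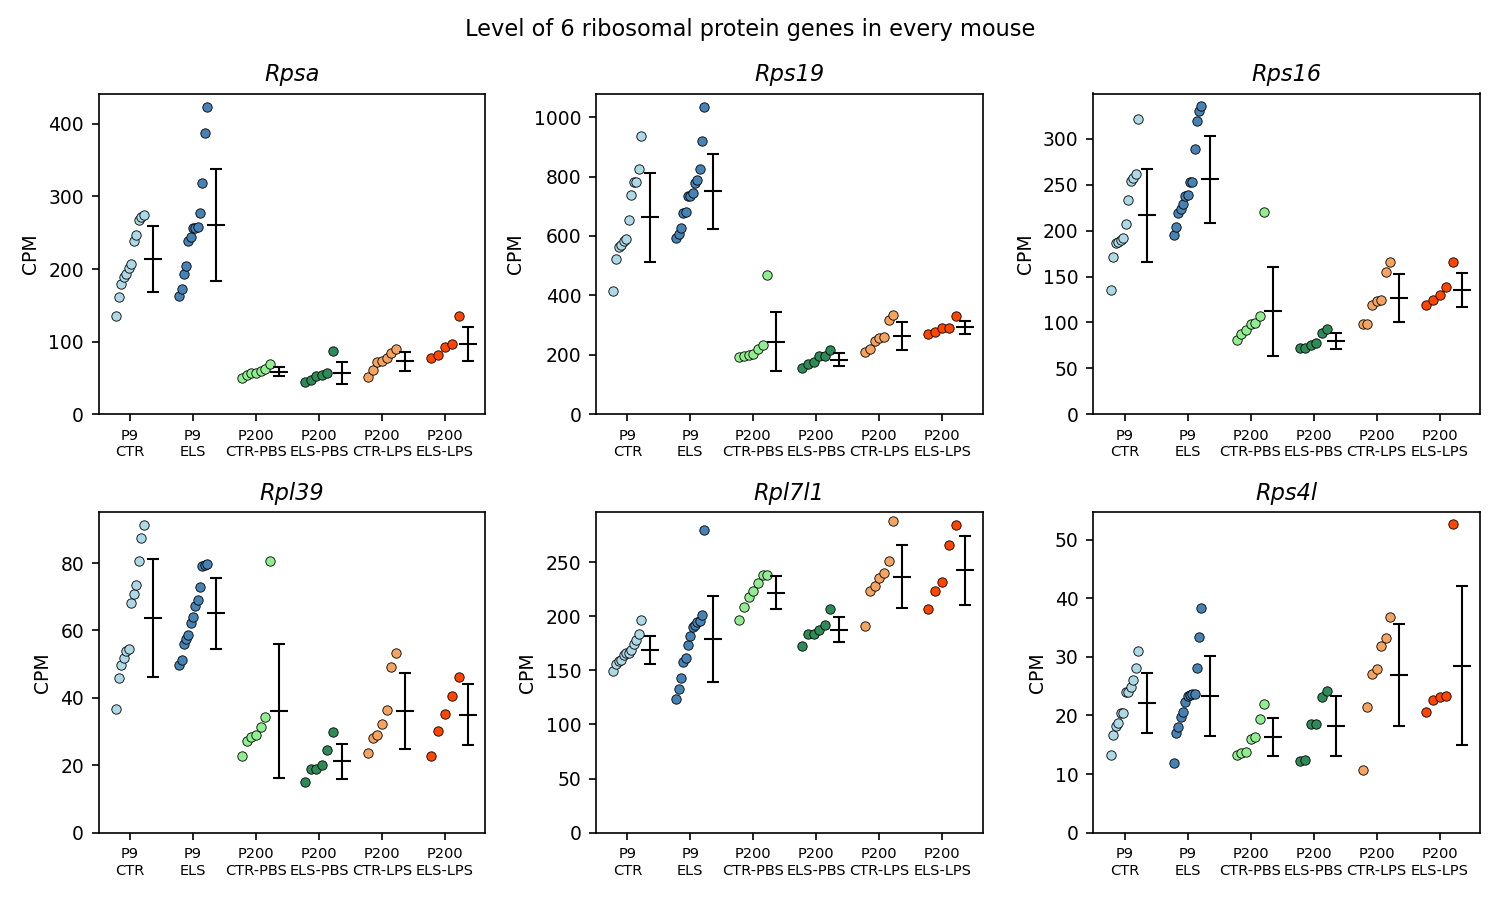
CPM of 6 members in every mouse (a point for each mouse, mean with SD beside it) in the 6 groups. Rpsa, Rps19, Rps16 and Rpl39 are lower in the P200 groups, with mouse 1.1 the single high point of P200-CTR-PBS in Rps19 (468 CPM), Rps16 (221 CPM) and Rpl39 (80.6 CPM), while Rpl7l1 and Rps4l do not follow them.

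Rpl7l1 was the member that rose with age in CTR mice. It is a paralog of Rpl7 that takes part in the assembly of the large subunit. It was between 150 and 196 CPM (median 166) in P9-CTR and between 197 and 238 CPM (median 223) in CTR-PBS, just without overlap (log2 fold change 0.40, SE 0.10, adjusted p = 0.00106). In ELS mice the ranges were 123 to 280 CPM and 172 to 207 CPM, which overlapped, with a log2 fold change of 0.07 (SE 0.10, adjusted p = 0.63). The test of the difference between the conditions gave -0.33 (SE 0.15, adjusted p = 0.436). Rpl7 itself fell by 0.66 in CTR and by 1.22 in ELS, so that Rpl7l1 made up 31.3% ± 4.4 of the summed CPM of the pair in P9-CTR (SD, n = 12) and 48.5% ± 4.3 in CTR-PBS (n = 7), without overlap (23.9% to 37.8% and 39.7% to 52.6%).

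The other paralog pairs were mixed. Rpl22, which binds RNA and guides lymphocyte development, fell by 0.75 in CTR and 1.32 in ELS, and its paralog Rpl22l1 fell by 1.09 and 1.67. Rps27l, a p53 target, was between 54.5 and 100 CPM (median 83.6) in P9-CTR and between 35.2 and 110.5 CPM in CTR-PBS, the highest value being mouse 1.1. It fell by 0.55 in CTR and by 1.44 in ELS. Its paralog Rps27 had a log2 fold change of -0.28 (SE 0.18, adjusted p = 0.207) in CTR and fell by 0.94 in ELS. It was at 614 CPM in mouse 1.1 and between 217 and 245 CPM in the other 6 CTR-PBS mice, and without that mouse it fell in CTR as well (-0.59, adjusted p = 0.00255). Rps4x, the X-linked form, fell by 0.63 and 1.2, while its paralog Rps4l, which has a single exon, had -0.44 (adjusted p = 0.0833) and -0.36 (adjusted p = 0.186). Rpl36a fell by 0.78 and 1.45. Its intronless copy Rpl36al, counted at 0.574 to 4.86 CPM, had 0.37 and 0.41, neither past the test. Rpl39l, a copy of Rpl39 known from testis, had at most 4.31 CPM and did not pass in either condition, nor did Rpl24 and Rps10, whose exons a second gene model shares. Across the 8 tested members of the list of paralogs and retrocopies, 3 fell and 1 rose in CTR and 4 fell in ELS. That list leaves out Rpl37rt, which was tested and is annotated as a processed pseudogene, as is Rps3a2.

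Correlations of the fall with features of the genes were weak. Over the 86 members, the age log2 fold change had a Pearson correlation of -0.32 with the log2 mean CPM in each condition (Spearman -0.18 in CTR and -0.07 in ELS). With coding length (0 for Rps3a2 and Rpl37rt) the Pearson correlation was -0.22 in CTR, -0.05 there without mouse 1.1, and -0.02 in ELS. With the percentage of copied stretches it was -0.15 and -0.16. These are descriptions over genes of the same libraries. The 44 members with a pyrimidine run had a median of -0.84 in CTR and -1.43 in ELS, and the 40 with a shorter run -0.83 and -1.34. Short coding genes that are not members, with at most 700 coding bases, had a median of -0.17 in CTR and -0.36 in ELS over 2246 genes. The 345 of them in the members' middle range of level (80.1 to 282 CPM) had 0.05 and -0.22.

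**Figure D4:**
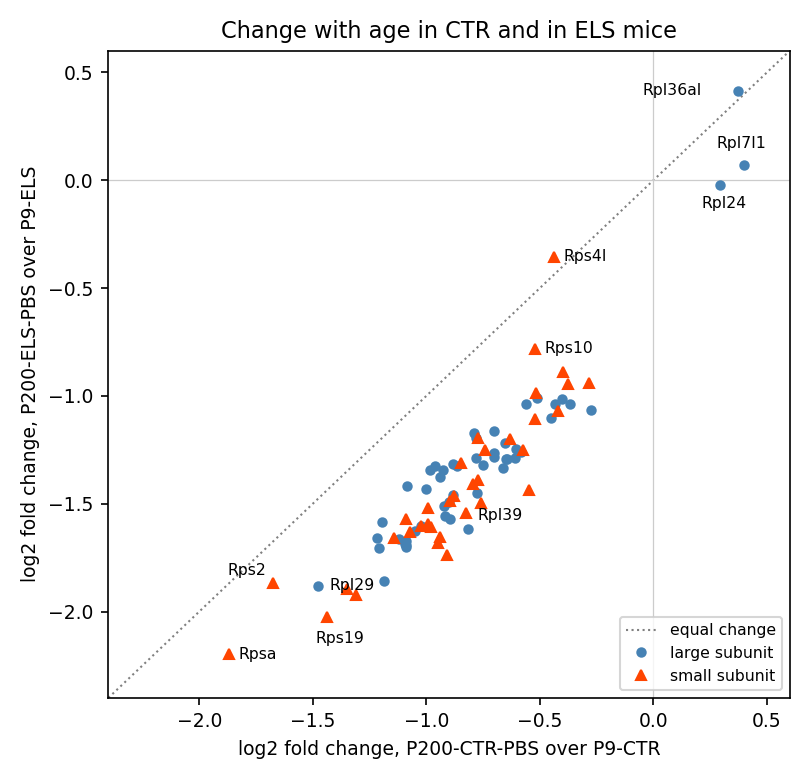
Log2 fold change with age of each tested member in CTR (horizontal) and ELS mice (vertical), which share no mice. Most points lie below the dotted line of equal change, from Rpsa at -1.87 and -2.20 to Rpl36al at 0.37 and 0.41.

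The fall was numerically larger in ELS, and the difference was tested as an interaction of age and condition. For 0 of the 86 members did it pass (edgeR's quasi-likelihood test, smallest adjusted p 0.26 for Rps16; 0 also with edgeR's likelihood-ratio test and with DESeq2), as for 0.0299% of all genes in the direction of a larger value in ELS and 0% in the other. At an unadjusted p under 0.05, 69 members had a more negative change in ELS, against 5.36% of all genes. The median interaction was -0.58 for the members and -0.23 for the 2246 other short coding genes. It was -0.28 for the 345 of these in the members' middle range of level. For the members it was -0.31 with the number of detected genes of each library as a covariate and -0.29 without the 3 libraries of few genes. Rps16 had -0.73 (SE 0.22) and Rps15, a small subunit protein near the decoding centre, had -0.74 (SE 0.23, adjusted p = 0.267). Without mouse 1.1 the median was -0.40, 35 members had an unadjusted p under 0.05, and the smallest adjusted p was 0.518.

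Mouse 1.1 did not differ evenly over the members. Its CPM relative to the mean of the other 6 CTR-PBS mice had a median log2 ratio of 0.90 over the members. It was highest among well counted members for Rpl34 (1.56), Rps15a (1.54), Rpl37 (1.49) and Rpl39 (1.48), and lowest for Rps2 (-0.38), Rps4l (-0.04) and Rpsa (0.02). Over the 78 members with a mean of at least 10 CPM, the ratio had a Pearson correlation of -0.73 with coding length. On a log2(CPM + 1) scale the median ratio was 0.87 for the members, -0.01 for the 2246 other short coding genes and -0.23 for all genes. With the mouse left out, 80 members fell with age in CTR and 1 rose, 44 of them under a log2 fold change of -1, and the median was -1.02.

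Many genes of other translation lists fell too, where 26.6% of all genes were lower in CTR and 25% in ELS. Of 11 elongation factors and associated chaperones, 9 fell and 1 rose in each condition (medians -0.79 and -1.04). Eef1g, the anchor of the elongation factor 1 complex, fell by 1.41 in CTR and 1.78 in ELS, and Eef1a1, which brings aminoacyl-tRNA to the ribosome, by 0.58 and 1.04. The gene that rose was Eef2k, the kinase that inhibits Eef2, with 1.64 and 1.80. Of 31 initiation factors, 20 fell and 3 rose in CTR and 21 fell and 1 rose in ELS. Of 10 snoRNA host genes and other TOP transcripts, 8 fell in each, among them Zfas1 (-0.93 and -1.31). Of 40 ribosome assembly genes only 13 and 14 fell, with medians of -0.29 and -0.26, and Npm1, which ships subunits from the nucleolus, fell by 1.19 and 1.63. Of 21 genes of TOR signalling and TOP control, 6 and 3 fell and 3 and 2 rose, and neither Mtor (-0.37, adjusted p = 0.43 in CTR) nor Larp1 (-0.46, adjusted p = 0.0990) passed. Of the ribosomal proteins outside the naming rule, Rack1 and Fau, both in the small subunit, fell in each condition (Rack1 -0.99 and -1.61).

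Markers of other cells and of division moved with age as well. The summed CPM of 8 division genes such as Mki67 was between 941 and 1493 in P9-CTR and between 24.7 and 36.3 in CTR-PBS, and all 8 fell. In ELS mice it was between 1053 and 2441 at P9 and between 23.6 and 39.1 after PBS, and again all 8 fell. All 5 border macrophage markers fell in each condition, and their sum was between 547 and 916 in P9-CTR and between 2.84 and 9.62 in CTR-PBS. Of 8 neuronal markers 8 fell in CTR and 6 in ELS, with sums between 71.0 and 192 in P9-CTR and between 4.53 and 12.7 in CTR-PBS. Of the 8 microglial markers 6 rose in CTR and 5 in ELS, with sums between 32058 and 51033 in P9-CTR and between 71322 and 76847 in CTR-PBS. Of 6 astrocyte markers 5 fell and 1 rose in each condition. Of the 3 tested markers of oligodendrocyte precursors 3 fell in CTR and 2 in ELS. Of 4 endothelial markers 2 fell and 1 rose in each, and of 2 tested monocyte and neutrophil markers 1 fell and 1 rose in each. Of 6 oligodendrocyte markers 2 rose and 1 fell in CTR, and 2 rose and 0 fell in ELS (edgeR's quasi-likelihood test). The part of these cells and of division in the fall of the ribosomal protein genes was not tested.

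The second question was whether ELS itself changed these genes at the end of the stress. At P9, 0 of 86 members passed between the conditions, and 0% of all genes in either direction (edgeR's quasi-likelihood test, and 0 members with the likelihood-ratio test and DESeq2). At an unadjusted p under 0.05, 27 members were higher in ELS and 0 lower, against 3.32% and 2.16% of all genes. The median log2 fold change was 0.22, and 0.07 with the number of detected genes as a covariate. Over the 2246 other short coding genes it was 0.098, and over the 345 of them in the members' middle range of level 0.16, both without the covariate. The smallest p values were those of Rpl6 (0.34, SE 0.12, adjusted p = 0.875) and Rplp0, which was between 678 and 1606 CPM in CTR and between 1004 and 1910 CPM in ELS.

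Nests of pups differed in these genes. The share of counts was between 2.02% and 2.14% in the 5 P9-CTR mice of nests 15 and 17, between 2.52% and 3.04% in the 5 of nests 51 and 52, and 1.74% and 2.34% in the pair from nest 58. In P9-ELS it was between 2.08% and 2.29% in nest 9, between 2.45% and 3.36% in nests 53 and 55, and 2.00%, 2.93% and 3.66% in nest 19. Thus the nests numbered from 51 on were mostly higher in both conditions, and in nest 19 the mice with few detected genes were the high ones. The median ELS log2 fold change of the members was 0.41 within nests 9 to 19 and 0.10 within nests 51 to 58, with 0 members past the test in either. Without the 3 libraries of few genes it was 0.12. What the nest numbers stand for is not given in the labels.

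In adults after PBS the members leaned the other way. Between ELS-PBS and CTR-PBS mice 0 of 86 members passed (0 also with the likelihood-ratio test and DESeq2), against 0.126% of all genes higher and 0.0419% lower. Of the 21 genes of TOR signalling and TOP control, 1 passed as higher here and 1 in the interaction of age and condition. The other translation lists had no gene past either test. At an unadjusted p under 0.05, 38 members were lower and 0 higher (4.21% and 5.5% of all genes), with a median log2 fold change of -0.33. The 2246 other short coding genes had a median of -0.11. Rpl39 was between 15.0992 and 29.9 CPM (median 19.5) in ELS-PBS and between 22.9 and 80.6 CPM (median 28.9) in CTR-PBS, groups that overlapped (log2 fold change -0.77, SE 0.23, adjusted p = 0.134). Rpl30, a large subunit protein, had the next smallest p (-0.56, SE 0.17, adjusted p = 0.148). Over the 86 members, the log2 fold change had a Pearson correlation of 0.68 with coding length, taken as 0 for Rps3a2 and Rpl37rt. This comparison has CTR-PBS mouse 1.1 on its control side. Without it that correlation was 0.34, the median was -0.17, 3 members had an unadjusted p under 0.05, and Rpl39 had -0.44 with an adjusted p of 0.571.

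After LPS, ELS and CTR adults were close. Of 86 members 0 passed (0 with the likelihood-ratio test and DESeq2), as did 0% of all genes. The median log2 fold change was 0.11 for the members and 0.07 for the 2246 other short coding genes. For the members it was 0.04 without ELS-LPS mouse 2 of nest 11 and 0.06 with the number of detected genes as a covariate. In all, 2 members had an unadjusted p under 0.05, both higher in ELS (2.11% of all genes, and 2.67% were lower). These were Rpl8, which lies near the peptidyl transferase centre (0.35, SE 0.14, adjusted p = 0.87), and Rpsa (0.41, SE 0.19). In ELS-LPS mice Rpsa was at 76.9, 82.2, 92.5, 96.5 and 136 CPM, and in CTR-LPS mice between 51.4 and 89.9 CPM (median 73.6). The upper 3 ELS-LPS mice were above all CTR-LPS mice and the lower pair was among them.

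The third question was how the genes respond to LPS in adults. After LPS the members were higher in ELS mice, whereas in CTR mice few passed. In CTR, 2 of 86 rose and 0 fell, against 8.73% and 6.2% of all genes. The median log2 fold change was 0.12 for the members, 0.00 for all genes and -0.04 for the 2246 other short coding genes. The members' median was 0.05 without CTR-LPS mouse 3 of nest 5 and 0.23 with the number of detected genes as a covariate. Only Rpl24 passed a log2 fold change of 1 as well (6.02% of all genes above 1 and 3.6% under -1), and for 0 members were the CTR-LPS and CTR-PBS mice without overlap (4.92% of all genes higher and 2.56% lower). This comparison and those of age and of ELS in PBS adults share the CTR-PBS mice. In ELS, 52 of 86 rose and 0 fell, against 7.4% and 4.94% of all genes, with a median of 0.60 (-0.04 for all genes). The 2246 other short coding genes had a median of 0.16, with 10.6% higher and 2.85% lower. The 345 of them in the members' middle range of level had 0.18, with 17.4% higher and 3.77% lower. None of the 52 passed a log2 fold change of 1 (4.69% of all genes above 1 and 3.17% under -1). For 33 members every ELS-LPS mouse was above every ELS-PBS mouse, which held for 5.65% of all genes. The count in ELS was 22 without ELS-LPS mouse 2 of nest 11, 31 without ELS-LPS mouse 1 of nest 20, 32 without ELS-PBS mouse 1 of nest 11 and 34 without ELS-PBS mouse 2 of nest 20, with 0 members lower in each.

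**Figure D5:**
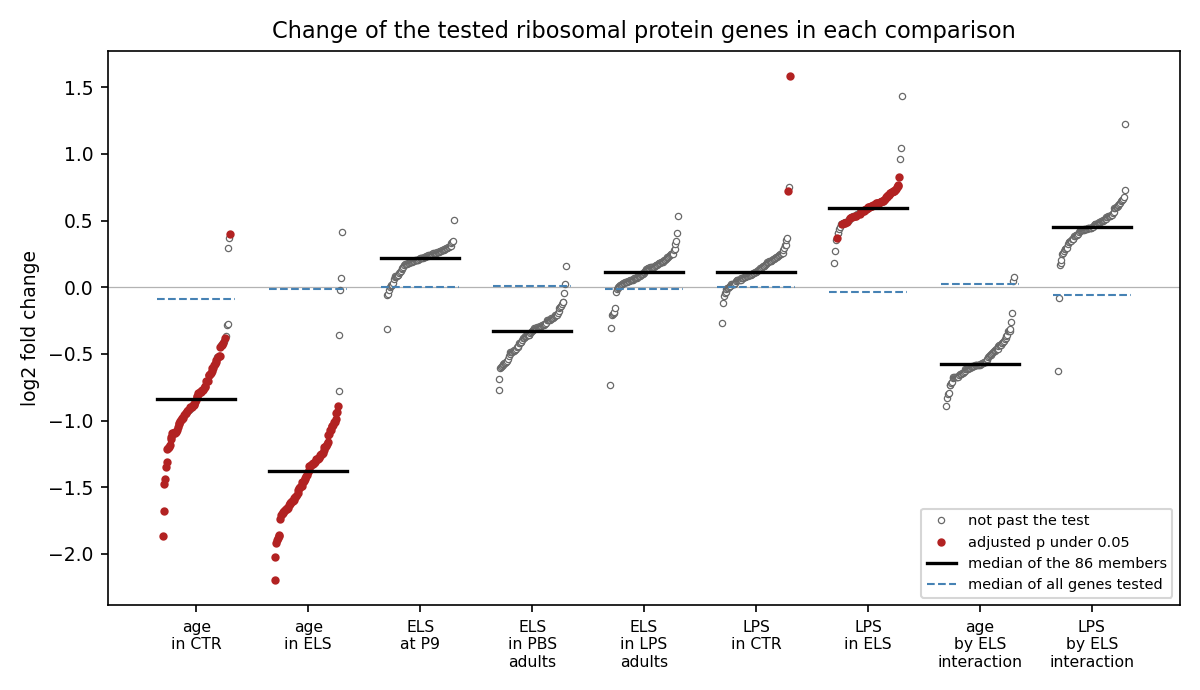
Log2 fold change of the 86 tested members in the 9 comparisons (filled points passed at an adjusted p under 0.05, open points did not), with the median of the members (solid line) and of all genes (dashed line). The members lie low in both age comparisons (medians -0.84 and -1.38) and above 0 for LPS in ELS (median 0.60), where 52 are filled.

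Of the members that rose with LPS in ELS mice, 35 were of the large and 17 of the small subunit. Rps16 was at 119, 125, 130, 138 and 166 CPM in ELS-LPS and between 71.8 and 93.3 CPM (median 76.6) in ELS-PBS. The groups did not overlap (log2 fold change 0.76, SE 0.19, adjusted p = 0.00423, edgeR's quasi-likelihood test). Rpsa had 0.77 (SE 0.20, adjusted p = 0.00531), with groups that met between 76.9 and 86.6 CPM. Rpl8 and Rps6 rose by 0.75 and 0.73.

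The 34 members that did not pass in ELS mice had positive values as well, and all 86 log2 fold changes were above 0, as were 46.8% of those of all genes. Of the 8 members the study names, 5 rose, and Rps15a (0.63, adjusted p = 0.0532), Rps24 (0.55, adjusted p = 0.0502) and Rps12 (0.41, adjusted p = 0.316) did not pass. Of the stalk, Rplp0 and Rplp1 rose (0.49 and 0.62) and Rplp2 had 0.41 (adjusted p = 0.178). Rpl7l1 rose by 0.37 (adjusted p = 0.0485), from 172 to 207 CPM after PBS to 207, 223, 232, 266 and 284 CPM after LPS. Its groups met at the border. Of the 8 tested members of the list of paralogs and retrocopies it was the only one to pass.

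In CTR mice the members that rose were Rpl24 and Rps4l. Neither passed with only the groups of the comparison in the fit, nor without CTR-LPS mouse 1.2, CTR-LPS mouse 2 of nest 8 or CTR-PBS mouse 5.1. Rps4l was between 13.3 and 22.0 CPM (median 16.0) in CTR-PBS and between 10.7 and 36.8 CPM (median 27.9) in CTR-LPS. Of the 7 LPS mice, 5 were above all PBS mice and 1 was below them all (log2 fold change 0.72, SE 0.23, adjusted p = 0.0251). In ELS it had 0.64 (adjusted p = 0.0982) and was at 20.7, 22.6, 23.1, 23.3 and 52.6 CPM after LPS, mouse 2 of nest 11 being the high one. Rpl24, a protein of the bridge between the subunits, was counted at 0.0509 to 0.751 CPM in CTR-PBS and at 0.471 to 1.47 CPM in CTR-LPS (log2 fold change 1.59, SE 0.56, adjusted p = 0.047), the low counts of a gene model shared with Gm28037. The adjusted p was 0.098 without mouse 1.1. Rps16, which rose in ELS mice, had 0.17 in CTR mice (SE 0.17, adjusted p = 0.589), and 0.43 with an adjusted p of 0.0478 without mouse 1.1.

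The test of the difference in LPS response between ELS and CTR mice was passed by 0 of 86 members (0 also with the likelihood-ratio test and DESeq2), as by 0% of all genes. At an unadjusted p under 0.05, 27 members had a larger response in ELS, against 2.93% of all genes, and the median difference was 0.45. The 2246 other short coding genes had a median difference of 0.18. The smallest p values were those of Rpl4, an exit tunnel protein, and Rpl8. Mouse 1.1 lowered the response in CTR mice. Without it the median LPS log2 fold change in CTR was 0.31, 3 members rose, 36 had an unadjusted p under 0.05, and the median difference between the conditions was 0.30 with 2 members under an unadjusted p of 0.05. The responses of ELS and CTR mice were not shown to differ.

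Some genes of the other translation lists rose as well, where 8.73% of all genes were higher in CTR and 7.4% in ELS. Of 40 ribosome assembly genes, 16 rose with LPS in CTR and 13 in ELS, with medians of 0.56 and 0.60, and 0 fell in either. Nop58, a core protein of box C/D snoRNPs, rose by 1.48 and 1.69. Of 10 snoRNA host and other TOP transcripts 4 rose in each, and Zfas1 had 1.09 and 1.75. Of 31 initiation factors 7 and 11 rose, and of 11 elongation factors 2 and 7, with Eef1g in both (0.46 and 0.67). Of the TOR list 4 rose and 2 fell in CTR and 2 rose and 1 fell in ELS. Myc, an activator of ribosome production, rose by 1.56 and 1.63, and Eif4ebp1, which inhibits cap-dependent initiation, by 0.96 and 1.16. Rack1 and Fau rose in ELS (0.68 and 0.61), and in CTR they had 0.18 and 0.07, neither past the test. Of the 8 microglial markers 2 fell with LPS in each condition, and of 6 astrocyte markers 1 rose in CTR and 2 in ELS. In CTR 1 of 4 endothelial and 1 of 5 border macrophage markers rose, and in ELS neither list had a marker past the test. None of the 8 neuronal, 8 division and 6 oligodendrocyte markers, nor of the 3 tested markers of oligodendrocyte precursors and the 2 of monocytes and neutrophils, passed in either LPS comparison (edgeR's quasi-likelihood test). The part of these cells in the LPS results was not tested.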

How the data were processed

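Hippocampal microglia of 50 mice were sequenced, and the authors deposited raw read counts per gene, 1 table for each mouse, made with bcl2fastq 2.20, cutadapt 2.10 and HTSeq 0.11.0 on GRCm39 according to the submitters' processing notes. The strand setting and annotation release were not given in the sources used here. Genes with at least 1 CPM in at least 3 mice were kept (16696 of 53700). Counts were normalised by TMM and fitted over all 6 groups with edgeR 4.0.16 (R 4.3.3), and 9 comparisons were tested with its quasi-likelihood test, with Benjamini-Hochberg adjustment over all genes tested and a threshold of 0.05. The script was tested on simulated counts. Each mouse is a separate animal. The study assigned whole litters to CTR or ELS at P2, and the quasi-likelihood test treats mice of a litter as independent. The first part of the number in the titles was read as the nest, which the labels do not define. CPM per mouse are counts scaled by TMM library size. Each SE is the absolute log2 fold change divided by the square root of the F statistic of the quasi-likelihood test. It is thus no separate measure of the spread between mice. Total counts ranged from 5152838 to 42231258, so precision is lowest for members of few counts.

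The members and all gene lists were chosen with earlier results of these data known. Members named in the text are the 8 the study names, the 3 largest changes in each direction of each comparison (or the 2 smallest p where none passed), paralog pairs, the 3 highest and lowest levels, and members with a role outside the ribosome. Some genes that this rule covers are not reported here. Rpl8 in the age comparisons, Rpl6 in other comparisons, and the members named for mouse 1.1 and for not passing were chosen after their values were seen. Alternatives were DESeq2 1.42.0, limma 3.58.1 voom with the nest, other filters, scalings and sample sets. Start windows were read from GRCm39.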

Additional observations from a re-analysis of the deposited data

Results flagged for a closer look

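For 19 quantities, the members' share of counts and the CPM of named genes, each group of 4 to 10 mice was searched for a mouse whose distance to the next, over the range of the group, passed Dixon's 95% limit. This found 16 cases among 73 group tests. Chance gives about 1 in 20 for a single test, but the 73 share mice and genes that move together, so the cases are not separate. In 10 of the 16 the mouse was P200-CTR-PBS mouse 1.1, the library with the fewest detected genes among adults. Its share of counts in ribosomal protein genes was 1.94% (0.987% to 1.22% in the other 6 mice of its group). It had 468 CPM of Rps19 (others at most 234), 221 of Rps16 (at most 107), 80.6 of Rpl39 (at most 34.3), 299.6 of Rps27a (at most 166), 358 of Rplp1 (at most 176), 45.2 of Rpl22 (at most 32.3), 41.5 of Rpl22l1 (at most 19.32), 110.5 of Rps27l (at most 52.6) and 153 of Rps26 (at most 94.7).

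In P200-ELS-PBS, mouse 1 of nest 2 had the highest share (1.21%, the others at most 1.01%), 86.6 CPM of Rpsa (others at most 57.5) and 178 of Rps27a (at most 129). In P200-ELS-LPS, mouse 2 of nest 11 had 878 CPM of Rplp0 (others at most 610.2) and 52.6 of Rps4l (at most 23.3). In P200-CTR-LPS, mouse 3 of nest 5 had 30.3 CPM of Rpl22l1 (others at most 24.0).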

How the results depend on the processing

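The fall with age and the rise with LPS in ELS mice kept their direction under every alternative run. With the further demand of an absolute log2 fold change above 1, 22 members were called for age in CTR, 1 for LPS in CTR and 0 for LPS in ELS. For LPS in CTR, 1 member was called without a filter on low counts, 1 with at least 1 CPM in 25 mice and 0 with the groups of the comparison alone. It was 9 without the 3 libraries with the fewest genes, an alternative chosen after seeing the data. The cause was not tested. With the nest as a replicate block, 0 members were called for LPS in CTR, 57 for LPS in ELS and 0 for the interaction. Same-nest PBS and LPS mice deviated together only weakly (median r 0.03, from -0.04 to 0.10 over 15 pairs), so the numbers were not shown to pair the mice. Leaving out each mouse in turn gave 71 to 81 members called for age in CTR, 80 to 81 for age in ELS, 0 to 3 for LPS in CTR, 22 to 65 for LPS in ELS and 0 in the other 5 comparisons. The count for LPS in CTR was 0 without CTR-LPS mouse 1.2, mouse 2 of nest 8 or CTR-PBS mouse 5.1, and for LPS in ELS it was 22 without ELS-LPS mouse 2 of nest 11, 31 and 34 without the ELS-LPS and the ELS-PBS mouse of nest 20, and 32 without the ELS-PBS mouse of nest 11. DESeq2 called 74 and 80 members for age in CTR and ELS, 2 and 59 for LPS. Members of few counts, such as Rpl24 and Rps10, limit what depth can show.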
